A study of Homo sapiens with 6 samples.

Results

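The genes described here encode the glycosyltransferases that build mucin-type O-glycans and cap glycan chains with fucose, sialic acid or N-acetylgalactosamine (GalNAc). They were compared between KM12SM and SW620, a pair of human colorectal cancer cell lines. The members were a list of 41 gene symbols together with every array annotation of the form GALNT followed by a number. Of the 41 listed genes, 38 had an annotated probe set, and the GALNT pattern added 7, which gave 45 genes out of 17687 named genes and 21448 probe sets on the array. The 3 listed genes GALNT4, GCNT4 and ST3GAL3 were not analysed here. Each of the 45 genes was represented by 1 probe set. The members were picked by gene symbol with no cut on a measured value, but earlier results of these data were known when the list was drawn up.

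O-glycosylation of mucins begins in the Golgi apparatus, where a GALNT enzyme attaches GalNAc to a serine or threonine. C1GALT1 then adds galactose to form core 1, a step that requires the chaperone C1GALT1C1 (COSMC). GCNT enzymes branch core 1 into core 2, and B3GNT6 instead adds N-acetylglucosamine to GalNAc to form core 3, a structure typical of the normal colon. B3GNT, B4GALT and B3GALT enzymes lengthen the chains, and ST and FUT enzymes end them with sialic acid or fucose, which produces the sialyl-Tn, blood group H and Lewis antigens. Colonic goblet cells carry dense coats of such glycans, and altered capping is a common feature of colorectal tumours.

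KM12SM is a highly liver-metastatic line selected in mice from KM12 cells, and SW620 was established from a lymph node metastasis and colonises the liver poorly. Both lines were grown untreated in serum-containing medium. Total RNA of 3 replicates per line was hybridised to 6 Clariom S arrays, and no source used here says whether the replicates were separate cultures, so the spread between them may be technical. The values are log2 signals normalised by the authors. Calls of higher and lower (KM12SM relative to SW620) needed a limma p-value, adjusted over all 21448 probe sets, below 0.05, and SE stands for the standard error of a log2 fold change. Each line is a single tumour genotype, so properties of the line and of its metastatic capacity cannot be told apart.

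Arrays of a line correlated at 0.981 to 0.992 over all probe sets, and arrays of different lines at 0.919 to 0.926. Replicate 3 stood furthest from its line, at 0.981 to 0.986 with the other arrays, against 0.992 for replicates 1 and 2. Among the 45 members, replicate 3 was also the array farthest from the line median for 24 genes in KM12SM and for 25 in SW620. Of 11 measured markers of colorectal epithelium, 0 were dim in both lines, where dim means a mean log2 signal under 5.12, the 25th percentile of probe set means. EPCAM was at 11.92 ± 0.09 in KM12SM against 11.74 ± 0.09 in SW620 (SD, n = 3 each). Of the 11, 7 were called higher in KM12SM, 1 was called lower and 3 were not called. The lower one was VIL1, the microvillus protein villin, at 7.52 ± 0.38 in KM12SM and 8.33 ± 0.25 in SW620 (SD, n = 3 each; limma adjusted p = 0.00857). The intestinal cadherin CDH17 was at 10.55 ± 0.04 in KM12SM and 5.60 ± 0.13 in SW620, and E-cadherin, CDH1, at 9.25 ± 0.35 and 5.55 ± 0.37 (SD, n = 3 each). Markers of fibroblasts (7 genes), leukocytes (7 genes) and endothelium (6 genes) had log2 summed signals of 8.54 to 9.78 on every array, against 13.64 to 14.60 for the epithelial markers. CD68, a lysosomal protein, was the 1 gene called among these non-epithelial markers, with a log2 fold change of 0.87 (SE 0.17, limma adjusted p = 0.00128).

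KM12SM had more mRNA than SW620 for a minority of the glycosyltransferases, spread over every step of the pathway, and less for fewer of them. Of the 45 members, 14 were higher in KM12SM (31.1%), 5 were lower (11.1%) and 26 were not called. Over all probe sets, 12.6% were higher and 12.4% were lower, 25% in either direction. At 2-fold or more, 11 members were higher and 2 were lower, against 5.58% and 4.87% of all probe sets. The median log2 fold change of the members was 0.21, and that of all probe sets was 0.01. All 19 called members had arrays that did not overlap between the lines, as did 6 that were not called, so that 25 members (55.6%) were without overlap, where 37.7% of all probe sets were. A filter on low values was passed by 39 of the 45 members, with a mean over the 6 arrays of at least 5.12. The 6 under it were GALNT8, GALNT13, GALNT14, GALNT17, ST3GAL1 and ST3GAL6, of which 0 were called. The filter takes both lines together. GALNT3 and FUT2, dim in SW620, therefore passed through their KM12SM arrays, and B4GALNT2, dim in KM12SM, through its SW620 arrays.

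**Figure D1:**
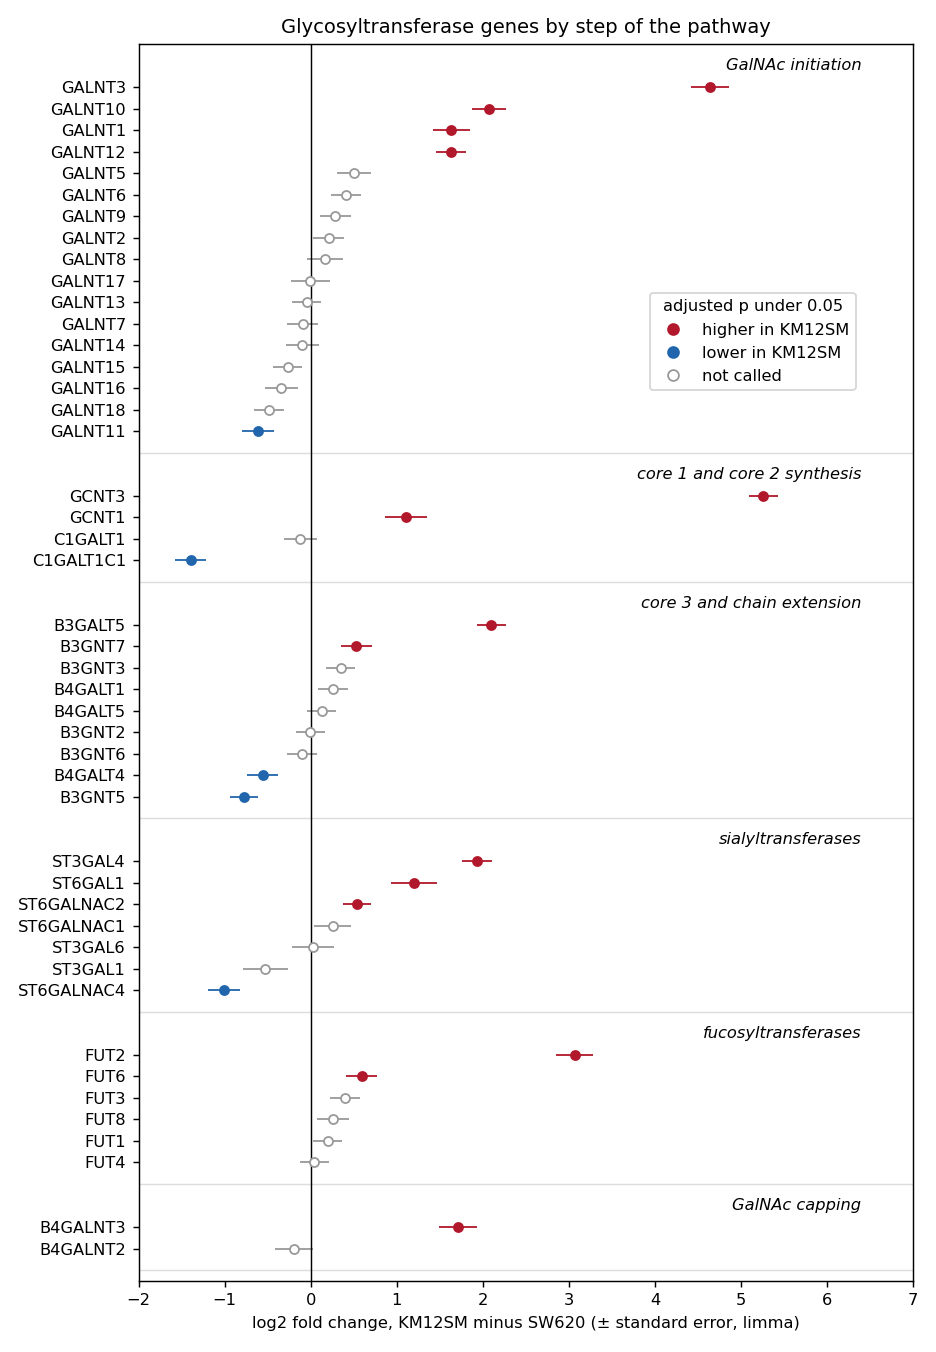
Log2 fold change (KM12SM minus SW620) of the 45 members with its standard error from limma, n = 3 arrays per line, grouped by step of the pathway, where filled red and blue points are the 14 members called higher and the 5 called lower, open points the 26 not called. GCNT3 and GALNT3 lie furthest to the right and C1GALT1C1 furthest to the left.

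Of 17 GALNT genes, 4 were higher in KM12SM, GALNT11 was lower and 12 were not called, with a median log2 fold change of 0.16. The share called, 29.4%, was near the 25% of all probe sets. GALNT3, which initiates O-glycosylation in secretory epithelia and also protects the phosphate hormone FGF23 from cleavage, had the largest difference of the family. Its log2 signal was 8.80, 8.56 and 8.45 on the KM12SM arrays and 3.82, 4.50 and 3.56 on the SW620 arrays. The lines were far apart and the SW620 mean was dim, with a log2 fold change of 4.64 (SE 0.22, limma adjusted p = 2.40e-10). GALNT10, an enzyme that prefers peptides already carrying GalNAc, had 9.12, 8.99 and 8.46 in KM12SM and 6.80, 6.94 and 6.62 in SW620. The KM12SM arrays all lay above the SW620 arrays, with a log2 fold change of 2.07 (SE 0.20, limma adjusted p = 7.49e-07).

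GALNT1, a broadly expressed initiator, had a log2 signal of 9.18, 9.19 and 9.03 in KM12SM and of 7.65, 7.90 and 6.95 in SW620. Replicate 3 of SW620 was the lowest of these, and the log2 fold change of 1.63 (SE 0.22, limma adjusted p = 3.07e-05) was 1.36 without it. GALNT12, which is strongly expressed in the colon, had 8.16, 8.61 and 8.14 in KM12SM and 6.63, 6.75 and 6.64 in SW620. Its difference was also 1.63, with a smaller standard error (0.18, limma adjusted p = 3.97e-06). GALNT11, which glycosylates Notch1 and receptors of the LDL receptor family, was lower by 0.61 on the log2 scale (log2 fold change -0.61, SE 0.18, limma adjusted p = 0.0224). Its 3 KM12SM arrays (6.18 to 6.54) lay below its SW620 arrays (6.68 to 7.19). Its call was lost without KM12SM replicate 2 (limma adjusted p = 0.0652) or 3 (0.0709), and without SW620 replicate 1 (0.0806) or 2 (0.0973).

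The other GALNT genes had log2 fold changes between -0.49 (GALNT18) and 0.50 (GALNT5). GALNT6, which is linked to mucin and fibronectin glycosylation in carcinomas, had 8.53, 8.79 and 8.32 in KM12SM and 8.20, 8.07 and 8.13 in SW620. These arrays did not overlap, yet the difference of 0.41 (SE 0.17) did not pass the test (limma adjusted p = 0.103). It passed without KM12SM replicate 3 (0.53, limma adjusted p = 0.0453). GALNT5 (0.50, limma adjusted p = 0.0701), GALNT18 (-0.49, limma adjusted p = 0.0575) and GALNT15 (-0.27, limma adjusted p = 0.293) likewise had arrays without overlap and were not called. GALNT5 was called without SW620 replicate 2 (limma adjusted p = 0.0437), and GALNT18 without SW620 replicate 1 (limma adjusted p = 0.0420). GALNT18 was also called after quantile normalisation (limma adjusted p = 0.0345) or median centring (0.0398), and with dim probe sets left out (0.0449). GALNT7, a follow-up enzyme like GALNT10, had a log2 fold change of -0.09 (SE 0.18), and GALNT2, another broadly expressed initiator, one of 0.21 (SE 0.18). The means of GALNT8, GALNT13, GALNT14 and GALNT17 were dim in both lines.

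Of 4 genes of core 1 and core 2 synthesis, 3 were called (75.0%, against 25% of all probe sets). Both measured branching enzymes were higher in KM12SM, the core 1 chaperone was lower and the core 1 galactosyltransferase was not called. GCNT3, the mucin-type enzyme that makes core 2 and core 4 in the gut, had the largest difference of all 45 members. Its log2 signal was 10.64, 10.56 and 10.32 on the KM12SM arrays and 5.17, 5.20 and 5.37 on the SW620 arrays. The log2 fold change was 5.26 (SE 0.17, limma adjusted p = 4.81e-12), or 38.3-fold, with a SW620 mean (5.25) just above the dim limit of 5.12. GCNT1, the core 2 enzyme first known from leukocytes, had 6.96, 7.28 and 7.36 in KM12SM and 5.83, 6.75 and 5.70 in SW620. Replicate 2 of SW620 stood close to the KM12SM arrays. With it, the log2 fold change was 1.11 (SE 0.24, limma adjusted p = 0.00263), and without it 1.43. Leaving out replicate 3 of both lines, a choice made after seeing the data, gave 0.83 and a limma adjusted p = 0.0576.

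C1GALT1C1, without which the core 1 enzyme is degraded and the short Tn and sialyl-Tn glycans accumulate, had the largest difference among the lower members. Its log2 signal was 6.32, 6.63 and 6.16 in KM12SM and 7.93, 7.60 and 7.77 in SW620. Every KM12SM array lay below every SW620 array, with a log2 fold change of -1.40 (SE 0.18, limma adjusted p = 2.31e-05). This is mRNA only. In the study's secretome data the C1GALT1C1 protein went the other way, with signal in KM12SM medium and none in SW620 medium. That medium was serum-free, unlike the growth medium given above. Other members were not compared with the secretome data here. Protein in the cells and the glycans themselves were not measured here. C1GALT1, the galactosyltransferase that this chaperone folds, had 9.24, 8.91 and 8.71 in KM12SM and 9.13, 9.24 and 8.85 in SW620. These values overlapped, with a log2 fold change of -0.12 (SE 0.19, limma adjusted p = 0.717).

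**Figure D2:**
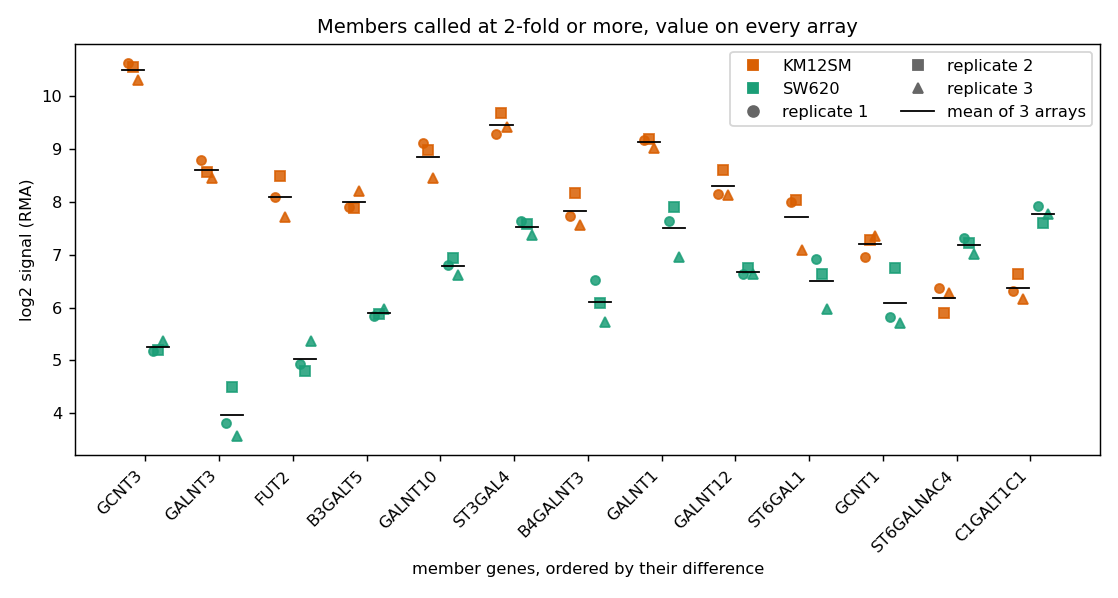
Log2 signal (RMA) on each of the 6 arrays for the 13 members called at 2-fold or more, ordered by their difference, where orange marks KM12SM and green SW620, the marker shape gives the replicate and the line the mean of 3 arrays. The arrays of the lines do not overlap for any of the 13 genes, and they come closest for ST6GAL1 (7.10 in KM12SM replicate 3 and 6.92 in SW620 replicate 1).

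Of 9 genes of core 3 synthesis and chain extension, 2 were higher, 2 were lower and 5 were not called (44.4% called, against 25% of all probe sets). B3GALT5, which adds galactose in the linkage of type 1 chains and so makes the precursor of the CA19-9 antigen, had 7.90, 7.88 and 8.21 in KM12SM and 5.85, 5.87 and 5.98 in SW620. The arrays of each line lay close together, and the log2 fold change was 2.10 (SE 0.17, limma adjusted p = 1.23e-07). B3GNT7, which extends N-acetyllactosamine chains that carry sulfate, was higher by 0.53 (SE 0.18, limma adjusted p = 0.0376). This call was lost without KM12SM replicate 1 (limma adjusted p = 0.138) or 2 (0.105), without SW620 replicate 2 (0.151) or 3 (0.0634), and after median centring (0.0570).

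B3GNT5, which starts the lacto-series glycolipids, was the most stable of the lower pair. Its log2 signal was 8.91, 8.83 and 9.08 in KM12SM and 9.79, 9.72 and 9.64 in SW620, a log2 fold change of -0.78 (SE 0.17, limma adjusted p = 0.00219). B4GALT4, which galactosylates sulfated N-acetylglucosamine, had a log2 fold change of -0.56 (SE 0.18, limma adjusted p = 0.0346). It lost its call whenever 1 array other than SW620 replicate 3 was left out (limma adjusted p 0.0632 to 0.188). B3GNT6, the core 3 synthase, had 6.60, 6.58 and 6.97 in KM12SM and 6.83, 6.75 and 6.88 in SW620. The lines overlapped, and the log2 fold change was -0.10 (SE 0.17, limma adjusted p = 0.738). The 4 other genes of the group that were not called, B3GNT2, B3GNT3, B4GALT1 and B4GALT5, had log2 fold changes from -0.0033 to 0.35.

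Among 7 sialyltransferases, 3 were higher, ST6GALNAC4 was lower and 3 were not called (57.1% called, against 25% of all probe sets). ST3GAL4, which sialylates N-acetyllactosamine and contributes to sialyl Lewis x, had 9.29, 9.68 and 9.42 in KM12SM and 7.65, 7.58 and 7.37 in SW620. All KM12SM arrays were higher, by a log2 fold change of 1.93 (SE 0.18, limma adjusted p = 4.63e-07). ST6GAL1, which sialylates the ends of N-glycans, had 8.0, 8.04 and 7.10 in KM12SM and 6.92, 6.63 and 5.98 in SW620. In each line replicate 3 was the lowest array, and replicate 3 of KM12SM was only just above replicate 1 of SW620. The log2 fold change was 1.20 (SE 0.27, limma adjusted p = 0.00291), the standard error being the largest but 1 among the 45 members. ST6GALNAC2, which adds sialic acid to the GalNAc of core 1, was higher by 0.54 (SE 0.17, limma adjusted p = 0.0249). It lost its call without KM12SM replicate 1 (limma adjusted p = 0.119) or 2 (0.0674), or without SW620 replicate 1 (0.0543) or 2 (0.0846).

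ST6GALNAC4, which makes disialylated core 1, had 6.37, 5.90 and 6.27 in KM12SM and 7.32, 7.22 and 7.02 in SW620. The KM12SM arrays were all lower, with a log2 fold change of -1.01 (SE 0.18, limma adjusted p = 5.46e-04). ST3GAL1, which sialylates core 1 and thereby competes with core 2 branching, had 4.27, 4.31 and 5.46 in KM12SM and 5.02, 5.48 and 5.12 in SW620. Its replicate 3 of KM12SM lay among the SW620 arrays, and the difference of -0.53 (SE 0.27) did not pass (limma adjusted p = 0.178). Without that array, the log2 fold change was -0.92 and passed (limma adjusted p = 0.00333), although the KM12SM mean was dim. ST6GALNAC1, the sialyl-Tn synthase, had 6.94, 6.95 and 7.30 in KM12SM and 6.52, 6.58 and 7.33 in SW620. Replicate 3 was the highest array of both lines for this gene, and the log2 fold change was 0.25 (SE 0.22, limma adjusted p = 0.464). ST3GAL6 was dim in both lines.

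Of 6 fucosyltransferases, FUT2 and FUT6 were higher in KM12SM and 4 were not called, and 0 were lower (33.3% called, against 25% of all probe sets). FUT2, the secretor enzyme that makes the H antigen on mucosal glycans, had 8.09, 8.50 and 7.71 in KM12SM and 4.94, 4.80 and 5.36 in SW620. The log2 fold change was 3.07 (SE 0.22, limma adjusted p = 2.28e-08), or 8.38-fold, with a SW620 mean that was dim. FUT1, which makes the H antigen of red cells, lies near FUT2 on chromosome 19, with 3 protein-coding genes between them in the RefSeq annotation. It had 6.68, 6.85 and 6.50 in KM12SM and 6.38, 6.44 and 6.62 in SW620, which overlapped, and a log2 fold change of 0.20 (SE 0.17, limma adjusted p = 0.475). Whether the differences of FUT2 and FUT1 differ from each other was not tested.

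FUT6 and FUT3 add the fucose of the Lewis antigens, lie on chromosome 19 with 0 protein-coding genes between them, and belong to a family of closely similar sequence. FUT6 was higher by 0.59 (SE 0.18, limma adjusted p = 0.0233), with 6.44, 6.50 and 6.62 in KM12SM and 6.07, 6.09 and 5.63 in SW620. The KM12SM arrays lay above the SW620 arrays, but the call was lost without any 1 KM12SM array or without SW620 replicate 3 (limma adjusted p 0.0528 to 0.0630). FUT3 had 5.92, 5.97 and 6.20 in KM12SM and 5.68, 5.47 and 5.74 in SW620, also without overlap, and a log2 fold change of 0.40 (SE 0.17) that did not pass (limma adjusted p = 0.106). Whether the probes of FUT3 and FUT6 also bind each other's transcripts was not tested. FUT4 (0.04) and FUT8 (0.26), the enzyme of core fucose on N-glycans, were not called.

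The enzymes that cap chains with GalNAc were B4GALNT3 and B4GALNT2. B4GALNT3, which makes the LacdiNAc group, had 7.73, 8.18 and 7.57 in KM12SM and 6.52, 6.09 and 5.73 in SW620. The lines were well apart, with a log2 fold change of 1.71 (SE 0.22, limma adjusted p = 1.98e-05). B4GALNT2, which makes the Sda antigen of the normal colon and is often reduced in colorectal cancer, had 5.06, 5.03 and 5.19 in KM12SM and 5.69, 4.70 and 5.48 in SW620. The SW620 arrays lay on both sides of the KM12SM arrays, and the log2 fold change was -0.20 (SE 0.22, limma adjusted p = 0.598), with a KM12SM mean (5.09) that was dim.

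Called members differed in how far their call depended on single arrays. Of the 19, 14 kept their call when any 1 array was left out, and 5 lost it at least once, namely GALNT11, FUT6, ST6GALNAC2, B4GALT4 and B3GNT7. All 5 had differences between 0.53 and 0.61 on the log2 scale in either direction. With 1 array left out, the largest limma adjusted p was 2.82e-08 for GCNT3 and 2.75e-07 for GALNT3. It was 0.0281 for ST6GAL1 and 0.0250 for GCNT1, which came closest to the threshold among those that kept the call.

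**Figure D3:**
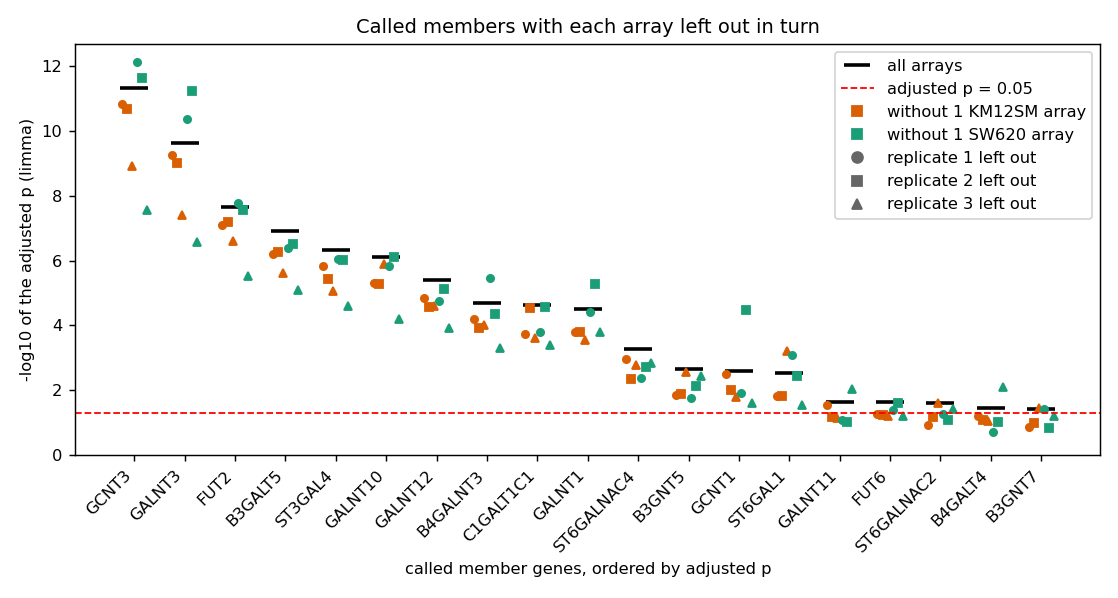
Minus log10 of the limma adjusted p for the 19 called members with all 6 arrays (black bars) and with each array left out in turn (points, orange for a KM12SM array and green for a SW620 array, shape for the replicate). Points under the dashed line, at an adjusted p of 0.05, are lost calls, and only GALNT11, FUT6, ST6GALNAC2, B4GALT4 and B3GNT7 have any.

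The sequence before the start sites of the members was read to see what the genes with the largest differences share. RefSeq promoter windows (GRCh38.p14) were found for 36 of the 45 members, with 56 start sites. The 250 bases before each start were searched on both strands for CAGGTG, the E-box that binds the repressors ZEB1 and SNAI2. The windows of the 3 members with the largest differences and of C1GALT1C1, the member with the largest difference downwards, are shown with this motif, read on either strand, in capitals, 1 start site for each gene.
GCNT3, chr15:59611533-59611782, plus strand: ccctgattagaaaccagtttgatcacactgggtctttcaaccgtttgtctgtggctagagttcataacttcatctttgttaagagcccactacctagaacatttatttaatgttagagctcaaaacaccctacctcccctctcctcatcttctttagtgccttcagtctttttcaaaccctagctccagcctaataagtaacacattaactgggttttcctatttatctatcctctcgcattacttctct
GALNT3, chr2:165794248-165794497, minus strand: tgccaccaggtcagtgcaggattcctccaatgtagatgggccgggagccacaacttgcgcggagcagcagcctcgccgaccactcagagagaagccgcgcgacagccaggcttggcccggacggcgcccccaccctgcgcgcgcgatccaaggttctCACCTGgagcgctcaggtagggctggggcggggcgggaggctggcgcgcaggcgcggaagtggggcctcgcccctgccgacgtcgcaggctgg
FUT2, chr19:48695721-48695970, plus strand: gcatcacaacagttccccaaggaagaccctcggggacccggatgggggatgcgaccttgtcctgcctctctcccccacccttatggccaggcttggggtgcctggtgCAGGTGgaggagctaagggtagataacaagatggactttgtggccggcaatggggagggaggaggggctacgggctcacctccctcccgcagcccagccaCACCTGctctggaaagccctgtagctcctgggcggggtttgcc
C1GALT1C1, chrX:120630055-120630304, minus strand: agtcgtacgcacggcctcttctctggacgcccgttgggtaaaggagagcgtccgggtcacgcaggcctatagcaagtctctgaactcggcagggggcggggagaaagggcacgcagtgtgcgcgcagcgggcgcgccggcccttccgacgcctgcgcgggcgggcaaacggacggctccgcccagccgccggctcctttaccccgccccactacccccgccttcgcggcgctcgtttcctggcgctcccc
The motif was present 2 times in the FUT2 window, 1 time in the GALNT3 window and 0 times in those of GCNT3 and C1GALT1C1. It was found in 6 of 20 windows of higher members (30.0%), 0 of 5 windows of lower members, 8 of 31 windows of members not called (25.8%) and 17.5% of all 35116 windows. The windows shown also differed in base composition, with 2 CpG dinucleotides for GCNT3, 7 for FUT2, 26 for GALNT3 and 34 for C1GALT1C1. The median was 19.5 CpG for higher members, 26 for lower members, 21 for members not called and 11 for all windows. The GC box GGGCGG, which binds Sp factors, was in 64.3% of the members' windows and in 42.6% of all windows, and the TATA box TATAAA in 1.79% and 10.7%. The GATA motif AGATAA was in 7.14% and 9.17%, the CDX motif TTTATG in 3.57% and 9.64%, and the forkhead motif TGTTTAC in 0 of 56 and 2.98%, all searched on both strands. No test was made on these shares, several windows belong to 1 gene, and a match does not show binding.

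Genes outside the members that supply, modify or remove the same glycans were described from 6 lists with 107 measured genes. Of these, 25 were higher in KM12SM (23.4%, against 12.6% of all probe sets), 12 were lower (11.2%, against 12.4%) and 70 were not called, with a median log2 fold change of 0.15. By list, the share called in either direction ran from 20.0% to 61.1%, against 25% of all probe sets. Among 20 genes of nucleotide sugar synthesis and Golgi transport, 5 were higher and 1 was lower (30.0% called). GNE, the rate-limiting enzyme of sialic acid synthesis, had the largest difference of this list (2.73, SE 0.19, limma adjusted p = 1.57e-08), with 8.75 ± 0.13 in KM12SM against 6.02 ± 0.30 in SW620 (SD, n = 3 each). SLC35A3, a Golgi transporter of UDP-N-acetylglucosamine, followed at 1.89 (0.19), NPL, which cleaves free sialic acid, at 1.27 (0.19) and NANS, which acts in sialic acid synthesis, at 1.14 (0.17). The 1 lower gene, named after its value was seen, was CMAS, which activates sialic acid, at -0.96 (SE 0.19, limma adjusted p = 0.00113).

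Of 18 genes of sulfation, 5 were higher, 6 were lower and 7 were not called (61.1% called, against 25% of all probe sets). PAPSS2 (3.64, SE 0.22) and PAPSS1 (2.82-fold), which make the sulfate donor, and the sulfate transporter SLC26A2 (1.61, 0.26) were higher. TPST1, which sulfates tyrosines rather than glycans, was lower (-1.72, 0.30), with a KM12SM mean of 3.69 that was dim and a mean over all arrays under the filter. SLC35B3 was lower as well (-1.17, SE 0.21, limma adjusted p = 4.61e-04). So were GAL3ST1 (-0.71, 0.18), CHST5 (-0.67, 0.22), GAL3ST2 (-0.57, 0.17) and CHST7 (-0.53, 0.17). CHST5, GAL3ST2 and CHST7 each lost their call without certain single arrays (limma adjusted p 0.0549 to 0.177). Among 8 hydrolases and esterases, 3 were higher and 1 was lower. SIAE, which removes acetyl groups from sialic acids and cleaves no glycosidic bond, had 10.17 ± 0.10 in KM12SM against 5.60 ± 0.43 in SW620 (SD, n = 3 each), a log2 fold change of 4.57 (SE 0.21, limma adjusted p = 1.30e-10). The fucosidase FUCA1 was higher by 1.35 (0.16) and CTSA, which shields the sialidase NEU1, by 1.07 (0.19). HEXA had -0.61 (0.19) and lost its call when KM12SM replicate 1 or 3, or SW620 replicate 1 or 2, was dropped (limma adjusted p 0.0527 to 0.109).

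Of 14 genes of N-glycan trimming and branching, 4 were higher and 1 was lower (35.7% called, against 25% of all probe sets). MGAT4A, a branching enzyme, had 7.27 ± 0.25 in KM12SM against a dim 3.72 ± 0.10 in SW620 (SD, n = 3 each; log2 fold change 3.55, SE 0.18, limma adjusted p = 4.28e-10). Its relative MGAT4B (0.97, 0.18) and the mannosidase MAN1A2 (0.88, 0.21) were higher, and the mannosidase MAN1A1 was lower (-2.63, 0.19). Of 12 mucin genes, 8 were not called, 0 were lower and 4 were higher (33.3% called, against 25% of all probe sets). These were the membrane mucins MUC3A (3.26, 0.22), MUC13 (1.76, 0.18) and MUC12 (0.98, 0.17) and the gel-forming MUC5AC (0.77, 0.18), where the SW620 mean of MUC3A (5.06) was dim. Among 35 other sialyl-, fucosyl- and galactosyltransferases and branching enzymes, 4 were higher (11.4%) and 3 were lower (8.57%). Of all probe sets, 12.6% were higher and 12.4% lower. Of the 35 genes, 14 were dim in both lines. GCNT2, which makes the branched I antigen and is a relative of GCNT1 and GCNT3, was lower (-1.74, 0.19), as were ST3GAL2 (-1.35, 0.20), which sialylates core 1 and gangliosides, and B3GALT2 (-0.75, 0.21), while the glycolipid enzyme B4GALT6 was higher (0.94, 0.20). The KM12SM means of GCNT2 (3.47) and B3GALT2 (4.54) and the SW620 mean of B4GALT6 (5.07) were dim, and GCNT2 and B3GALT2 were also under the filter. B3GALT2 lost its call without KM12SM replicate 1 (limma adjusted p = 0.0825) or SW620 replicate 2 (0.0785).

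**Figure D4:**
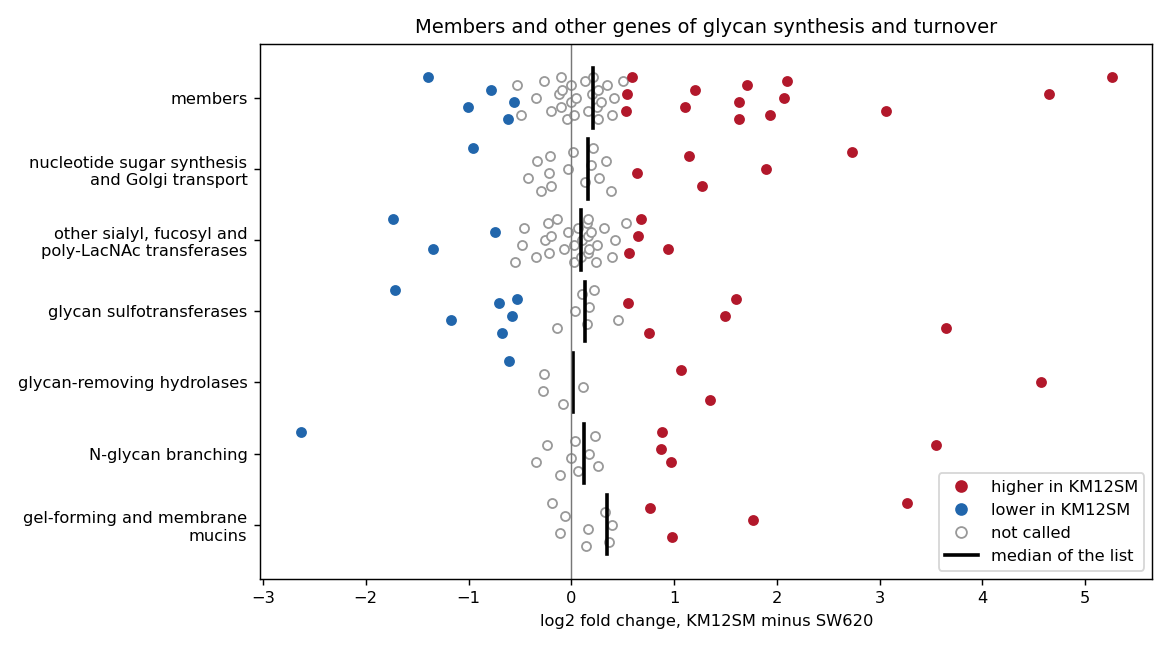
Log2 fold change (KM12SM minus SW620, from 3 arrays per line) of each of the 45 members and of the 107 genes of 6 related lists, where red and blue points passed the limma test as higher and lower, open points did not, and the black bar is the median of the list, which lies between 0.02 and 0.34. GCNT3 (5.26), GALNT3 (4.64) and SIAE (4.57) lie furthest to the right and MAN1A1 (-2.63) furthest to the left.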

How the data were processed

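The authors deposited log2 RMA values from Transcriptome Analysis Console (version not given in the sources used here), rounded to 2 decimals, for 21448 probe sets on 6 arrays, and these were used as they stand. Of the probe sets, 17709 carry 1 gene symbol, 0 carry several and 3739 are unnamed here. Every probe set was fitted with limma 3.58.1 in R 4.3.3 (lmFit, eBayes) as a two-sided KM12SM minus SW620 contrast without block or filter, with Benjamini-Hochberg adjustment over all of them. The number of arrays limits precision: the standard errors of the members were 0.17 to 0.27 on the log2 scale. No detection calls were used. Fits were tested on simulated arrays. All called members were named, those at 2-fold or more with every value, and 9 genes were named whatever their result. Further members that were not called were named outside this rule, FUT1 and B4GALNT2 with every value. Of each related list, up to 4 called genes with the largest differences were named. CMAS and the further lower genes of sulfation were added after their values were seen. The members and lists were chosen with earlier results of these data known. Alternatives were other scalings, a filter on dim probe sets, the replicate number as a block, a robust eBayes with a trend, weighted arrays, an equal-variance two-sample test on each probe set alone (not a test the study names), a fold limit and leaving out arrays. No member had several probe sets, so a fit with the probe sets of a gene averaged is not given for them. Promoter sequences come from RefSeq.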

Additional observations from a re-analysis of the deposited data

How the results depend on the processing

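No member changed direction with a call under any alternative given here. Of the 19 called members, 12 kept their call under every one (9 higher and 3 lower), and of the 26 not called, 9 were called under at least 1. The equal-variance two-sample test on each probe set alone gave 17 higher and 6 lower members before adjustment and 10 and 3 after, with 3038 probe sets and 21 related genes called in all. It ended the calls of ST6GAL1 and GCNT1, as well as those of GALNT11, B3GNT7, B4GALT4 and FUT6. At 2-fold or more, 2 members were lower and 2242 probe sets and 18 related genes were called. Array weights, whose estimation stopped before it converged, gave 10078 probe sets and 58 related genes, and 20 higher and 7 lower members. With 1 array left out, 11 to 14 members were higher and 3 to 5 lower, with 4099 to 5428 probe sets and 30 to 35 related genes called. The 3 lower members were found without KM12SM replicate 2 or without SW620 replicate 2. The replicate block gave 14 higher and 6 lower members and 5681 probe sets, and GALNT18 was the 1 member whose call it changed (-0.49, limma adjusted p = 0.0490). Deviations of same-numbered arrays correlated at 0.0577, 0.0951 and 0.1491. KM12SM replicate 2 correlated slightly better with SW620 replicate 1 (0.1001), and the main fit did not take the numbers as pairs. Replicate 3 of each line correlated negatively with the other numbers (-0.142 to -0.045). This is no separate observation. Deviations were taken from the line mean, so the covariances of an array with the other line cancel out. The positive 0.1491 of the third arrays therefore has to be balanced by negative values. Whether same-numbered arrays share an effect was not tested. Median centring moved the share of higher calls among all called probe sets from 50.5% to 45.4%. No background measure was used, which limits how exactly fold changes are known where 1 line was dim (GALNT3, FUT2, MGAT4A, MUC3A and B4GALT6 in SW620, GCNT2, B3GALT2 and TPST1 in KM12SM). The same limit holds for GCNT3, whose SW620 mean of 5.25 was just above the dim limit of 5.12.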
